A study of Homo sapiens with 6 samples.

Results

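The genes described here encode histone chaperones, chromatin remodellers and the Polycomb, trithorax and related enzymes that write or erase marks on histones. They were taken from a list of 59 genes that also named histone variants. Of these, 34 had a row with a gene name on the array and were measured, among 14884 named genes in all, and each was read from the brightest of its rows. No histone variant was among the 34: H2AZ1, H2AZ2, MACROH2A1, MACROH2A2, H2AJ, H3-3A, H3-3B and H1-10 were not analysed here, nor was H2AX. The other genes not analysed here were CHAF1A, CHAF1B, ANP32E, SMARCA4, SMARCA2, SMARCA5, SMARCB1, SMARCC1, SMARCC2, ARID2, BAZ1B, EED, JARID2, RNF2, BMI1, KMT2A and SETDB1. The measured genes are therefore called chaperone and remodeller genes below.

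Total RNA was profiled on 6 arrays from H9, an established human embryonic stem cell line, with 2 arrays in each of 3 groups. The gamma_ON cells carried a lentiviral vector for H2A.X with S139E, a change to glutamate of the serine that kinases phosphorylate at DNA breaks. The gamma_OFF cells carried the same vector with H2A.X bearing T136A and S139A, alanine changes that take no phosphate. The CTRL cells carried the vector with eGFP alone. Per the vector names, the EF1α promoter drives expression in each group, with eGFP read from the same transcript. All cells were sorted for eGFP and a surface antigen of pluripotent cells and expanded from single colonies. They were kept on mouse fibroblast feeders with conditioned medium and 8 ng/ml bFGF. The labels name no removal of the cells' own H2A.X and no group with unsubstituted H2A.X, so substitution and extra H2A.X cannot be told apart. Each sample title names a clone derived from transduced H9 cells, so differences between vectors and between clones cannot be told apart. The labels do not say whether the 2 arrays of a group came from separate clones or cultures. The p-values thus reflect only how far these samples spread, possibly for technical reasons.

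Chromatin is built and rebuilt by protein classes that act on the nucleosome. Histone chaperones escort histones to and from DNA, ATP-dependent remodellers slide, eject or exchange nucleosomes, and lysine methyltransferases and demethylases set marks that Polycomb and trithorax proteins use to keep genes silent or active. In pluripotent cells these systems hold developmental genes in a repressed but inducible state, and INO80, SRCAP and TIP60 complexes also handle H2A variants and work at DNA breaks marked by phosphorylated H2A.X.

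Values are log2 levels per array row, so a difference of 1 is a 2-fold difference, and levels of different genes are not compared. Median levels over all rows lay between 6.11 and 6.25 on the 6 arrays, and having 6 arrays limits precision. The pluripotency genes SOX2 (11.39 to 11.73) and LIN28A (11.90 to 12.23) were bright on all 6 arrays, while POU5F1 read 7.10 to 8.05 and NANOG 6.26 to 7.29. The 11 such markers averaged 10.44 to 10.48 in gamma_ON, 10.50 to 10.53 in gamma_OFF and 10.20 to 10.32 in CTRL. Against CTRL, 8 of the 11 lay higher in gamma_ON and 10 in gamma_OFF. By the test described below, POU5F1 was higher in gamma_ON (limma adjusted p = 0.0441), and DNMT3B and PRDM14 were higher in gamma_OFF, all against CTRL. Gamma_OFF replicate 2 had the narrowest spread of levels over genes, with an SD of 1.64, against 1.70 in gamma_OFF replicate 1, 1.76 to 1.81 in gamma_ON and 1.76 to 1.78 in CTRL. All 34 chaperone and remodeller genes averaged above 6.17, the median level of all rows, and their mean was 9.12 to 9.21 on the gamma_ON arrays, 8.88 to 8.95 on the gamma_OFF arrays and 9.10 on both CTRL arrays. In bulk RNA, fewer cells of a type and less RNA per cell cannot be told apart.

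**Figure D1:**
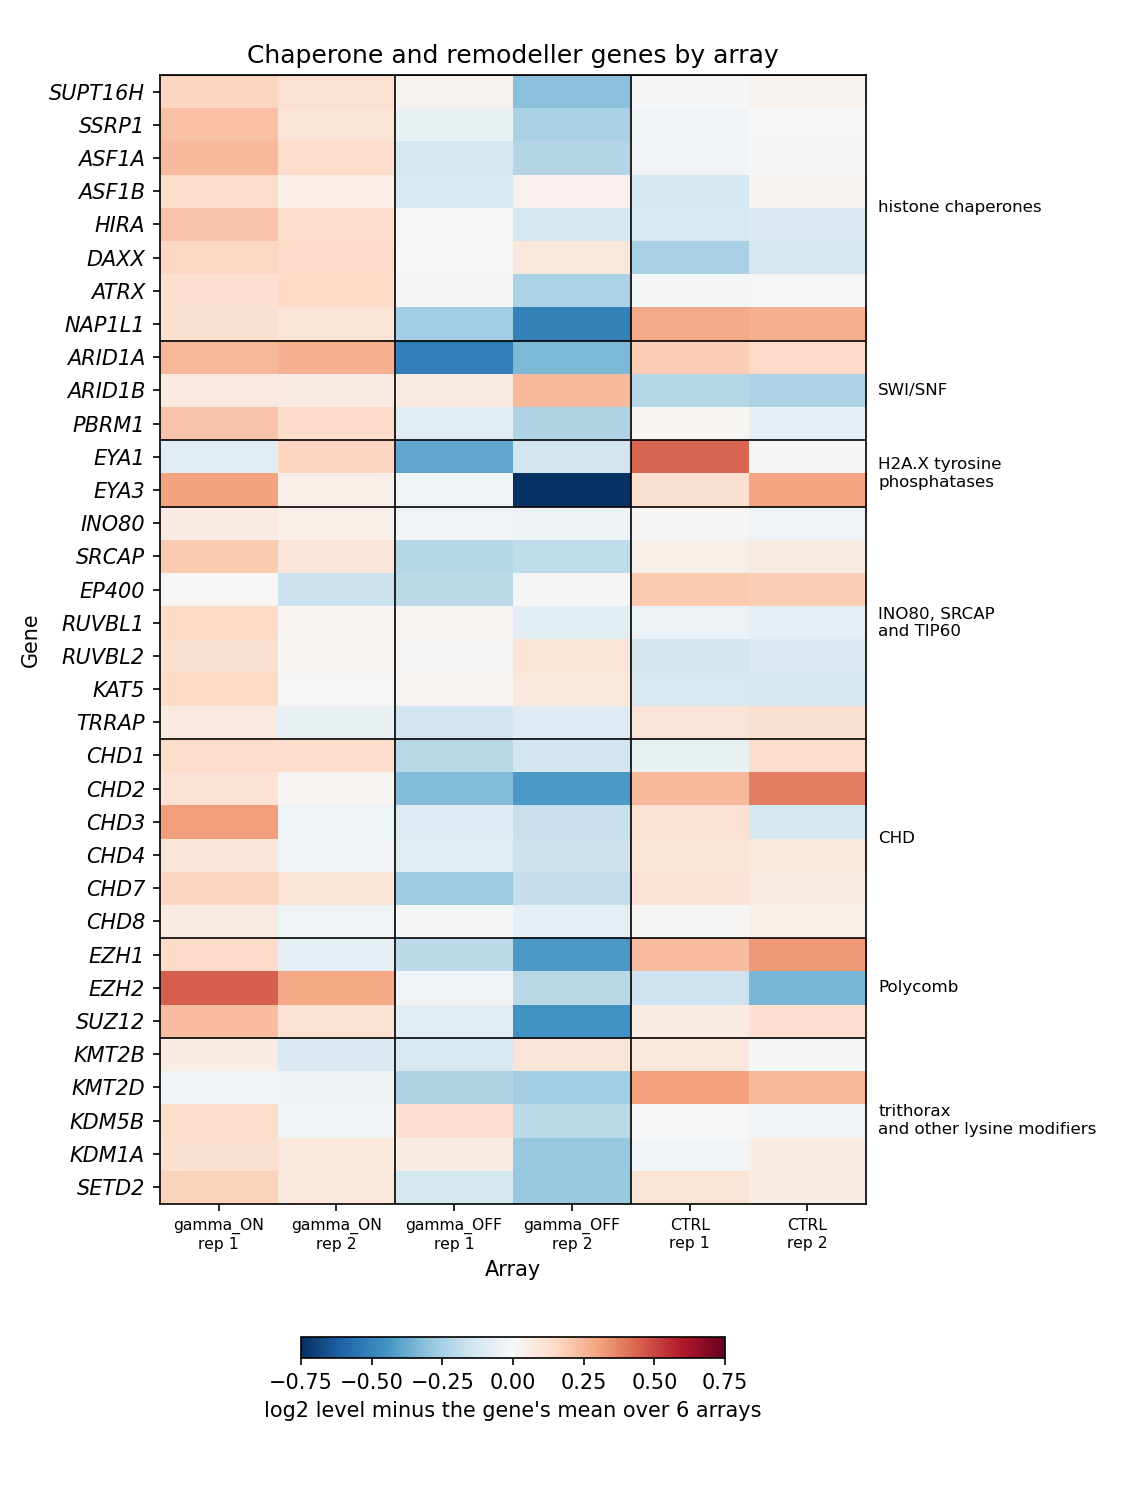
Level of the 34 measured chaperone and remodeller genes on each of the 6 arrays, in log2 units relative to the gene's own mean over the arrays (colour), with genes grouped by role. The gamma_OFF columns are mostly blue, and gamma_OFF replicate 2 held the lowest of the 6 values for 20 genes, while gamma_ON replicate 1 held the highest for 21.

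In gamma_OFF against CTRL, 5 of the 34 genes fell and 0 rose. These were CHD2, which encodes a chromodomain remodeller, NAP1L1, a chaperone of H2A and H2B, ARID1A, the defining subunit of the BAF form of SWI/SNF, EZH1, a Polycomb methyltransferase, and KMT2D, an enhancer methyltransferase. Each fell by 1.43 to 1.62-fold, and none of the 34 genes differed by as much as 2-fold in any comparison. A gene was called at a limma adjusted p under 0.05, with adjustment over all 14884 genes. The 5 genes make up 14.7% of the 34, beside 8.85% of all genes called, with 6.08% lower and 2.77% higher. At an unadjusted p under 0.05 there were 13, beside 30.4% of all genes. Among the 10644 genes brighter than the median row, 16.3% were called and 6 of the 34 chaperone and remodeller genes, with ARID1B added in the upward direction. The share among the 34 is thus near that of other bright genes. Leaving out either gamma_ON array changes no fold change of gamma_OFF against CTRL, and gives the same fit as gamma_OFF and CTRL alone. The 5 calls depended on single arrays: 0 of the 34 were called without CTRL replicate 1 (1.27% of all genes) or CTRL replicate 2 (0.880%), 1, ARID1A, without gamma_OFF replicate 2 (2.61%), 2, NAP1L1 and CHD2, without either gamma_ON array (3.81%), and 8 without gamma_OFF replicate 1 (23.6%).

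As a whole the 34 genes had a median log2 fold change of -0.15 in gamma_OFF against CTRL, beside 0.01 over all genes and -0.05 over the bright genes. The value was below 0 for 26 of the 34, beside 48.1% of all genes, and the groups did not overlap for 24 members, 20 lower and 4 higher (beside 61.3% of all genes, 30.2% lower and 31.1% higher). This direction changed with the scaling, while in the other settings, listed below, 24 to 27 of the 34 lay below 0. When the deposited values were quantile-normalized again over all rows, 16 of the 34 lay below 0, beside 43.0% of all genes. The median was then 0.01. After that step 3 were called, NAP1L1 and CHD2 lower and ARID1B higher, beside 6.27% of all genes. CHD2 then stood at -0.56, NAP1L1 at -0.65, ARID1A at -0.42, EZH1 at -0.43 and KMT2D at -0.37. The narrower spread of levels in gamma_OFF replicate 2 moved with these values, and its part in them was not tested. Without that array 24 of the 34 lay below 0, with a median of -0.11.

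In gamma_ON against CTRL, 0 of the 34 genes were called by limma, beside 1.55% of all genes (0.739% higher and 0.806% lower). At an unadjusted p under 0.05 there were 5, beside 14.8% of all genes: EZH2, DAXX, HIRA and ARID1B with higher and KMT2D with lower values. EZH2, the main Polycomb methyltransferase of dividing cells, came nearest, with a log2 fold change of 0.62 (adjusted p = 0.0592). The 34 genes had a median of 0.09, beside 0.02 over all genes, and 23 lay above 0, beside 54.4% of all genes. The groups did not overlap for 23 genes, beside 52.4% of all genes. EZH2 was the 1 gene called with the trend and robust option (2.56% of all genes) and with dim genes left out (3.54%). It was also the 1 called with array weights (5.40%) and with only the 2 groups compared (3.27%). Leaving out either gamma_OFF array gave the same fit as comparing only the 2 groups, so it is not a further setting.

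In gamma_ON against gamma_OFF, ARID1A was the 1 gene called of 34, higher in gamma_ON, or 2.94% beside 5.99% of all genes (3.98% higher and 2.02% lower). At an unadjusted p under 0.05 there were 14, beside 33.0% of all genes. The log2 fold change was above 0 for 32 of the 34 genes, beside 52.9% of all genes and 63.3% of the bright ones, with ARID1B and KMT2B the exceptions. Groups did not overlap for 26 genes, all higher in gamma_ON, beside 63.3% of all genes, 35.8% higher and 27.6% lower. The median was 0.27, beside 0.02 over all genes and 0.11 over the bright ones. With the values quantile-normalized again, 23 of the 34 lay above 0, beside 49.6% of all genes. The median was then 0.09 and 0 of the 34 were called, beside 3.20% of all genes. The count of calls was 14 without gamma_OFF replicate 1 (27.3% of all genes) and 0 when gamma_ON replicate 1 (0.329%) or replicate 2 (0.450%) was dropped. The comparisons of each vector with CTRL share the CTRL arrays, and this one shares its arrays with both, so the 3 are not independent.

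**Figure D2:**
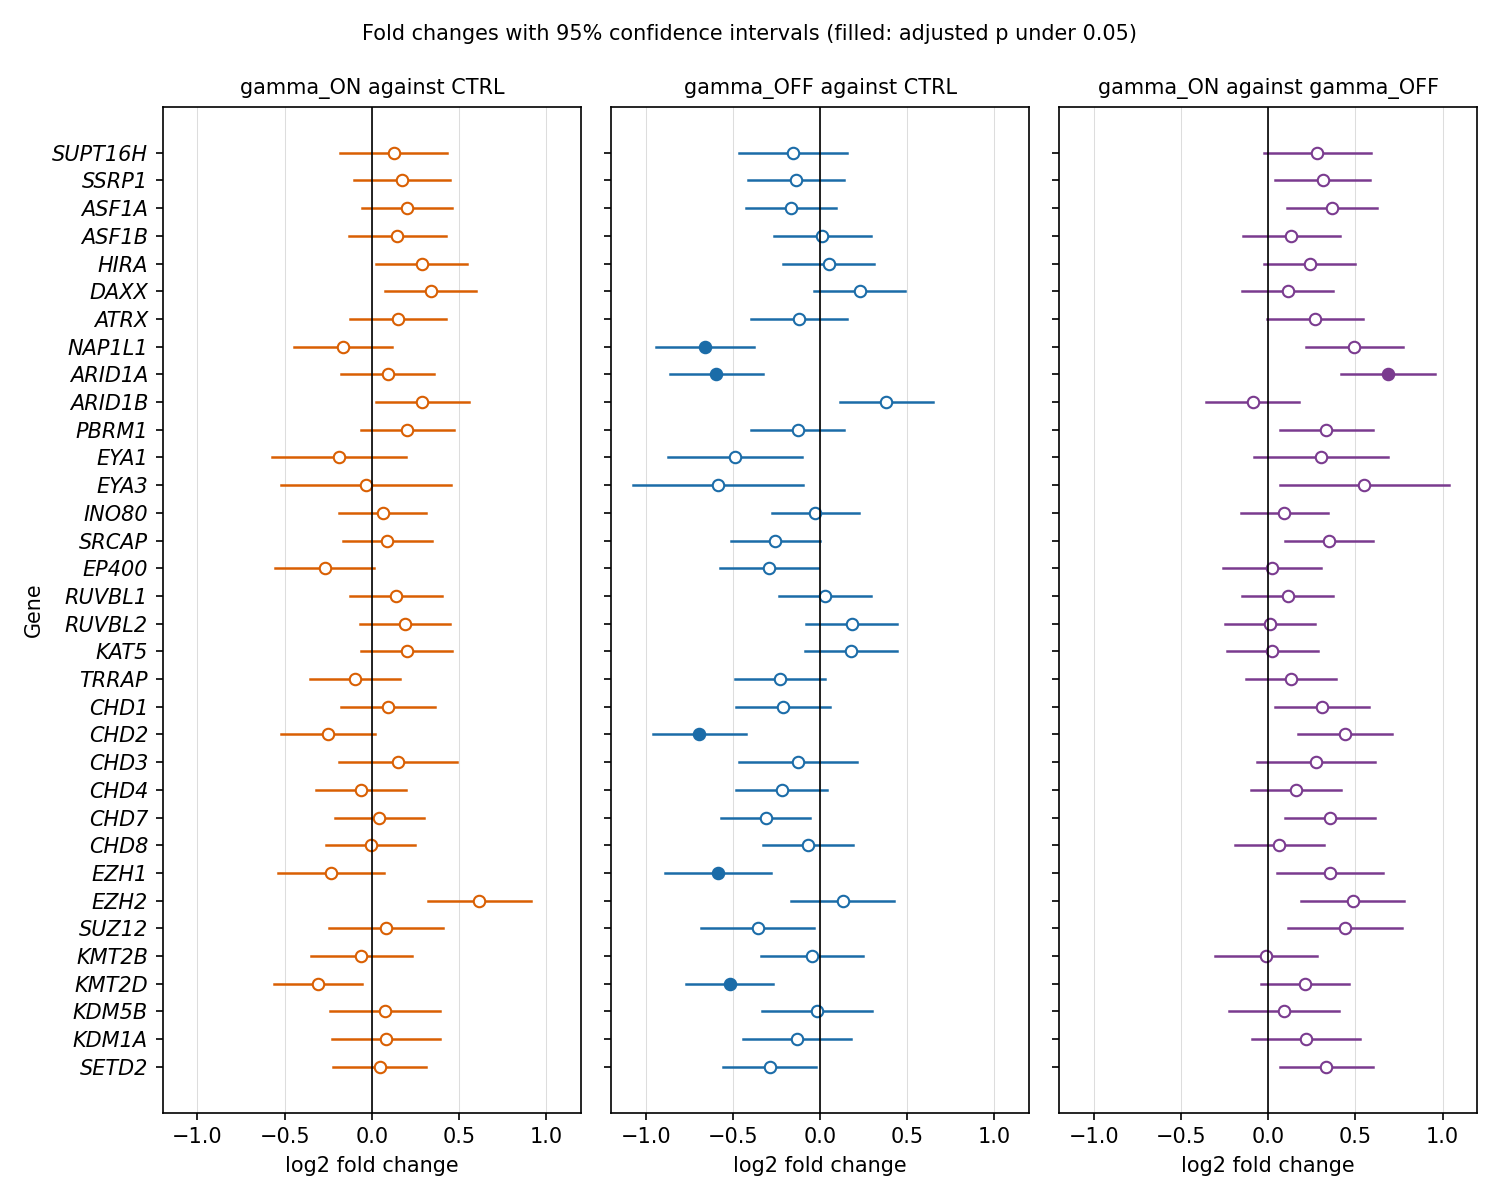
Log2 fold change of each of the 34 genes (points) with its 95% confidence interval from limma (bars) in gamma_ON against CTRL, gamma_OFF against CTRL and gamma_ON against gamma_OFF, with filled points for an adjusted p under 0.05. The filled points are NAP1L1, ARID1A, CHD2, EZH1 and KMT2D in gamma_OFF against CTRL and ARID1A in gamma_ON against gamma_OFF.

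Among the 8 measured histone chaperones, NAP1L1 fell in gamma_OFF and the other 7 did not pass in any comparison. NAP1L1 read 7.44 and 7.42 in gamma_ON, 7.06 and 6.81 in gamma_OFF, and 7.61 and 7.59 in CTRL. Both gamma_OFF arrays lay under the other 4, and the gamma_ON arrays lay between the other groups without overlap. Its log2 fold change in gamma_OFF against CTRL was -0.66 (SE 0.12, adjusted p = 0.0189), and in gamma_ON against gamma_OFF it was 0.49 (adjusted p = 0.0507). RefSeq lists pseudogenes named after NAP1L1, SUPT16H, HIRA, EP400, RUVBL2 and SUZ12, so the levels of these 6 genes are uncertain. The adjusted p was 0.0577 without gamma_OFF replicate 2, 0.111 without CTRL replicate 1 and 0.118 without CTRL replicate 2.

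FACT, the complex of SUPT16H and SSRP1 that takes H2A and H2B off the nucleosome ahead of polymerases, stood at similar values for both subunits. SUPT16H was 0.13 in gamma_ON against CTRL and -0.15 in gamma_OFF against CTRL, and SSRP1 was 0.17 and -0.14 in those comparisons (all log2 fold changes, none called). For SUPT16H the gamma_OFF arrays read 11.12 and 10.78, and the CTRL arrays 11.09 and 11.12, so the gamma_OFF value came from replicate 2. ASF1A, which hands H3 and H4 to other chaperones, read 9.50 and 9.39 in gamma_ON, 9.12 and 9.03 in gamma_OFF, and 9.24 and 9.25 in CTRL. The 3 groups of ASF1A did not overlap, yet the log2 fold change of 0.37 between gamma_ON and gamma_OFF missed the threshold (SE 0.11, adjusted p = 0.077). ASF1B, the paralog tied to proliferation, stood at 0.15 in gamma_ON and 0.01 in gamma_OFF against CTRL.

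The H3.3 chaperones were measured as HIRA, which deposits the variant in transcribed genes, and DAXX with its partner ATRX, which deposit it in heterochromatin. DAXX read 7.95 and 7.93 in gamma_ON, 7.79 and 7.87 in gamma_OFF, and 7.55 and 7.66 in CTRL. CTRL was the lowest group with no overlap, and the log2 fold changes against it were 0.34 in gamma_ON (SE 0.11, adjusted p = 0.206) and 0.23 in gamma_OFF (adjusted p = 0.215). DAXX had 5 rows, whose differences ran from 0.25 to 0.34 in gamma_ON and from 0.13 to 0.23 in gamma_OFF against CTRL. HIRA read 8.93 and 8.86 in gamma_ON, 8.73 and 8.59 in gamma_OFF, and 8.60 and 8.62 in CTRL. Its gamma_ON arrays were the highest, at 0.29 over CTRL (adjusted p = 0.288), and its gamma_OFF arrays lay on both sides of CTRL. ATRX stood at 0.15 in gamma_ON and -0.12 in gamma_OFF against CTRL.

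In SWI/SNF the paralogs ARID1A and ARID1B, which take each other's place in the BAF complex, had opposite signs in gamma_OFF. ARID1A read 9.48 and 9.50 in gamma_ON, 8.71 and 8.89 in gamma_OFF, and 9.42 and 9.37 in CTRL. Both gamma_OFF arrays stood well under the other 4, whereas gamma_ON and CTRL were close. ARID1A fell in gamma_OFF against CTRL by 0.59 on the log2 scale (SE 0.12, adjusted p = 0.0223) and was 1.61-fold higher in gamma_ON than in gamma_OFF (log2 fold change 0.69, SE 0.12, adjusted p = 0.0216). In gamma_ON against CTRL it stood at 0.09, with an interval from -0.18 to 0.36. The call in gamma_OFF against CTRL held without either gamma_OFF array, while its adjusted p was 0.134 when CTRL replicate 1 was dropped, 0.13 for CTRL replicate 2 and 0.0502 for either gamma_ON array.

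ARID1B read 8.87 and 8.85 in gamma_ON, 8.86 and 9.04 in gamma_OFF, and 8.58 and 8.56 in CTRL. All 4 arrays with an H2A.X vector lay above both CTRL arrays. The log2 fold change was 0.38 in gamma_OFF (SE 0.12, adjusted p = 0.0734) and 0.29 in gamma_ON (SE 0.12, adjusted p = 0.295), both against CTRL, and neither passed. With dim genes left out, with the values quantile-normalized again, and without gamma_OFF replicate 1, ARID1B was among the called genes in gamma_OFF against CTRL. PBRM1, the defining subunit of the PBAF form, read 9.87 and 9.80 in gamma_ON, 9.58 and 9.43 in gamma_OFF, and 9.67 and 9.59 in CTRL. Its groups did not overlap, and the widest difference was 0.33 between gamma_ON and gamma_OFF (adjusted p = 0.0985).

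EYA1 and EYA3 encode phosphatases that remove a tyrosine mark from H2A.X itself, in the same tail of the protein as the serine changed in both vectors. EYA3 read 9.26 and 9.0 in gamma_ON, 8.94 and 8.22 in gamma_OFF, and 9.08 and 9.25 in CTRL. The gamma_OFF arrays differed from each other by 0.72, the widest gap within a pair among the 34 genes. Its log2 fold change of -0.59 in gamma_OFF against CTRL did not pass (SE 0.22, adjusted p = 0.108), and was -0.23 without gamma_OFF replicate 2 and -0.95 without gamma_OFF replicate 1. EYA1 read 7.67 and 7.91 in gamma_ON, 7.36 and 7.62 in gamma_OFF, and 8.19 and 7.76 in CTRL. EYA1 also had the widest gap between the CTRL arrays, 0.42, and stood at -0.49 in gamma_OFF against CTRL (SE 0.17, adjusted p = 0.0978).

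None of the 7 genes of the INO80, SRCAP and TIP60 complexes passed in any comparison. These remodellers exchange H2A.Z and act on H2A.X at breaks. SRCAP, the motor that deposits H2A.Z, had the widest difference, with 8.28 and 8.18 in gamma_ON, 7.87 and 7.90 in gamma_OFF, and 8.13 and 8.16 in CTRL. Both gamma_OFF arrays were the lowest, at 0.35 under gamma_ON (SE 0.11, adjusted p = 0.0836) and with a log2 fold change of -0.26 against CTRL (adjusted p = 0.16). EP400 and TRRAP, the motor and the scaffold of the TIP60 complex, shared another order. EP400 read 9.02 and 8.86 in gamma_ON, 8.82 and 9.01 in gamma_OFF, and 9.22 and 9.21 in CTRL, and TRRAP read 9.12 and 9.0 in gamma_ON, 8.91 and 8.95 in gamma_OFF, and 9.14 and 9.17 in CTRL. For both genes the CTRL arrays were the highest, with EP400 at -0.27 in gamma_ON and -0.29 in gamma_OFF and TRRAP at -0.10 and -0.23 (log2 fold changes against CTRL). A dimmer second row of EP400 gave -0.13 and -0.21.

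KAT5, the acetyltransferase of TIP60, and the shared helicases RUVBL1 and RUVBL2 lay on the other side. KAT5 read 7.23 and 7.09 in gamma_ON, 7.11 and 7.16 in gamma_OFF, and 6.97 and 6.95 in CTRL, with log2 fold changes of 0.20 and 0.18 against CTRL. RUVBL2 read 10.43 and 10.33 in gamma_ON, 10.32 and 10.41 in gamma_OFF, and 10.17 and 10.20 in CTRL, and stood at 0.19 and 0.18. For both genes the CTRL arrays were the lowest of the 6. RUVBL1 stood at 0.14 in gamma_ON and 0.03 in gamma_OFF, and INO80, the motor of its complex, at 0.06 and -0.03.

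All 6 measured CHD remodellers had log2 fold changes below 0 in gamma_OFF against CTRL, from -0.07 for CHD8 to -0.69 for CHD2. After the second quantile normalization CHD3 (0.0044) and CHD8 (0.10) lay above 0. CHD2, a remodeller linked to H3.3 deposition, read 8.52 and 8.43 in gamma_ON, 8.09 and 7.98 in gamma_OFF, and 8.66 and 8.80 in CTRL. Both gamma_OFF arrays were the lowest and both CTRL arrays the highest, with gamma_ON between them. CHD2 fell in gamma_OFF against CTRL by 0.69 (log2, SE 0.12, adjusted p = 0.0138), the widest difference of the 34 genes there, and stood at 0.44 in gamma_ON against gamma_OFF (adjusted p = 0.0585). The adjusted p against CTRL was 0.0504 without gamma_OFF replicate 2, 0.0682 without CTRL replicate 1 and 0.122 without CTRL replicate 2.

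CHD7, a remodeller of enhancers, read 9.24 and 9.18 in gamma_ON, 8.81 and 8.90 in gamma_OFF, and 9.19 and 9.15 in CTRL. Gamma_OFF was low on both arrays while gamma_ON and CTRL overlapped, and the difference from CTRL of -0.31 did not pass (SE 0.11, adjusted p = 0.105). CHD1, which works with transcribing polymerase, stood at -0.21 and CHD4, the motor of the NuRD corepressor, at -0.22 in gamma_OFF against CTRL. In gamma_ON against CTRL the CHD genes ran from -0.25 for CHD2 to 0.15 for CHD3.

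The Polycomb methyltransferases EZH1 and EZH2, alternative catalytic subunits of PRC2, gave different orders of the 3 groups. EZH1, the form typical of resting cells, read 9.15 and 8.94 in gamma_ON, 8.81 and 8.57 in gamma_OFF, and 9.24 and 9.33 in CTRL. CTRL was highest and gamma_OFF lowest, without overlap. EZH1 fell in gamma_OFF against CTRL by 0.59 (log2, SE 0.13, adjusted p = 0.0345) and stood at -0.24 in gamma_ON against CTRL (adjusted p = 0.466). Its call against CTRL ended without gamma_OFF replicate 2 (adjusted p = 0.109), without CTRL replicate 1 (0.132) and without CTRL replicate 2 (0.192).

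EZH2 read 9.46 and 9.30 in gamma_ON, 8.98 and 8.80 in gamma_OFF, and 8.85 and 8.67 in CTRL. Here gamma_ON was highest with no overlap, while gamma_OFF and CTRL overlapped. The log2 fold changes were 0.62 in gamma_ON against CTRL (SE 0.13, adjusted p = 0.0592), 0.49 in gamma_ON against gamma_OFF (adjusted p = 0.0585) and 0.13 in gamma_OFF against CTRL (adjusted p = 0.517). EZH2 is known as a gene that rises with the cell cycle. All 22 measured DNA replication genes had positive values in gamma_ON against CTRL, beside 54.4% of all genes, with a median of 0.43. Of these 17 had an unadjusted limma p under 0.05 (beside 14.8% of all genes) and 0 were called (beside 1.55%). Their mean level was 9.53 to 9.66 in gamma_ON, 9.18 to 9.39 in gamma_OFF and 9.15 to 9.19 in CTRL. All 15 measured mitosis genes were positive in gamma_ON against CTRL too, with a median of 0.29, and HMMR was called (0.67, adjusted p = 0.0243). Their mean level was 10.09 to 10.16 in gamma_ON, 9.79 to 9.98 in gamma_OFF and 9.78 to 9.81 in CTRL. In gamma_OFF against CTRL 18 of the 22 replication and 11 of the 15 mitosis genes were positive, beside 51.9% of all genes. In gamma_ON against gamma_OFF the replication gene TYMS (0.81, adjusted p = 0.0103) and the mitosis gene KIF20A (0.50, adjusted p = 0.047) were called higher. These were 4.55% and 6.67% of the 2 lists, beside 5.99% of all genes called. After the second quantile normalization the limma adjusted p was 0.0326 for TYMS and 0.108 for KIF20A. For HMMR in gamma_ON against CTRL it was 0.0279. The part of cycling in the EZH2 values was not tested. SUZ12, the core subunit that holds PRC2 together, read 10.13 and 10.02 in gamma_ON, 9.83 and 9.45 in gamma_OFF, and 9.97 and 10.03 in CTRL. Its gamma_OFF difference from CTRL was -0.36 (SE 0.14, adjusted p = 0.133), with most of it on replicate 2.

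Of the 5 trithorax and other lysine-modifying genes, KMT2D fell in gamma_OFF. It read 8.56 and 8.55 in gamma_ON, 8.37 and 8.33 in gamma_OFF, and 8.90 and 8.83 in CTRL. The arrays of each group lay close together and the groups did not overlap. KMT2D fell by 0.52 in gamma_OFF (log2, SE 0.11, adjusted p = 0.0288) and stood at -0.31 in gamma_ON (SE 0.11, adjusted p = 0.229), both against CTRL. Its adjusted p was 0.0711 without gamma_OFF replicate 2, 0.164 without CTRL replicate 1 and 0.147 without CTRL replicate 2.

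KMT2B, another methyltransferase of H3 lysine 4, read 8.12 and 7.95 in gamma_ON, 7.94 and 8.16 in gamma_OFF, and 8.14 and 8.05 in CTRL. Its groups overlapped in all 3 comparisons, with log2 fold changes between -0.06 and -0.01. SETD2, which methylates H3 along transcribed genes, read 8.75 and 8.66 in gamma_ON, 8.45 and 8.30 in gamma_OFF, and 8.68 and 8.64 in CTRL. Gamma_OFF was the lowest group, at -0.29 against CTRL (adjusted p = 0.14). The demethylases KDM1A and KDM5B stood at 0.08 each in gamma_ON and at -0.13 and -0.02 in gamma_OFF against CTRL, and for both the lowest array was gamma_OFF replicate 2.

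**Figure D3:**
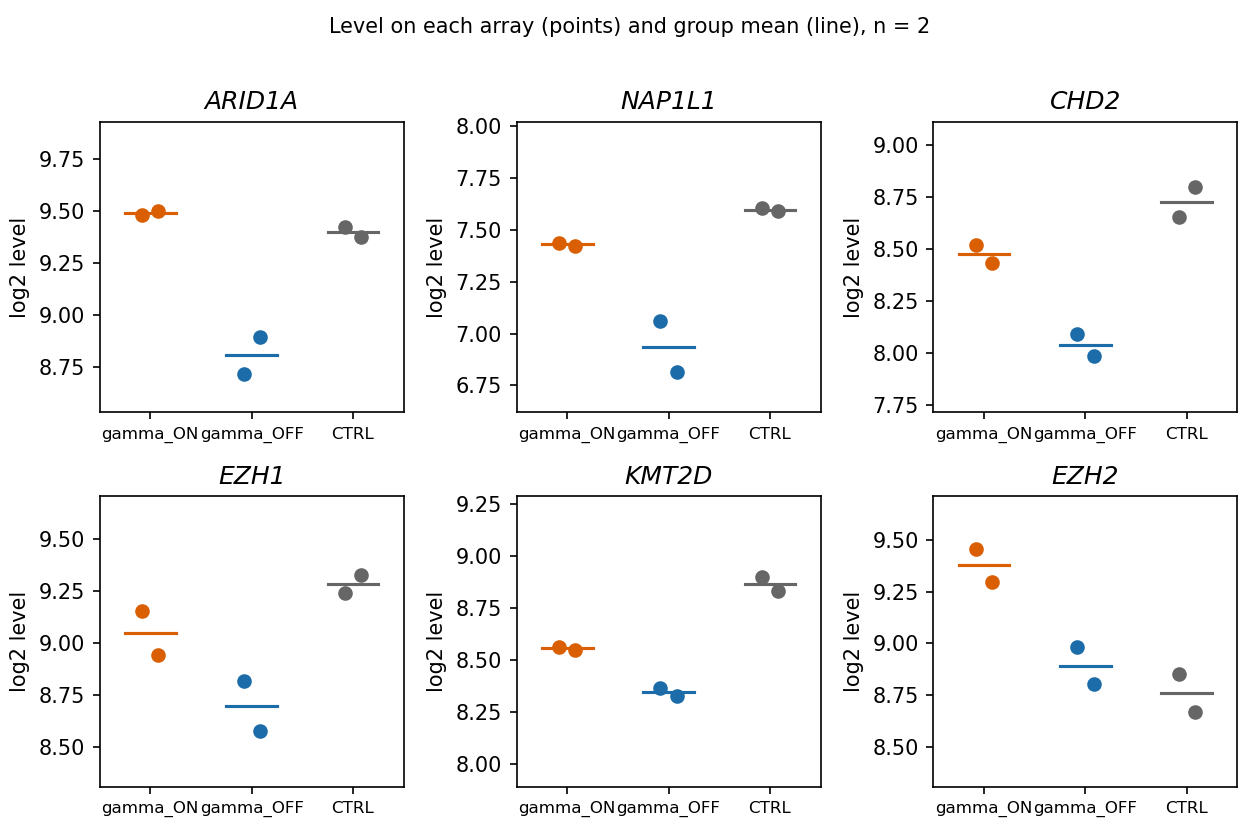
Log2 level (vertical axis) of the 5 genes that fell in gamma_OFF against CTRL, and of EZH2, on each array (points), with group means (lines, n = 2). Each panel spans 1.4 log2 units. Both gamma_OFF points lie under all others for ARID1A, NAP1L1, CHD2, EZH1 and KMT2D, and both gamma_ON points lie above all others for EZH2.

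The promoters of the 5 genes that fell in gamma_OFF are shown because the genes fell in the same comparison. Each sequence is the 250 bases before the gene's start, 5′ to 3′ on the gene's strand, from RefSeq on GRCh38.p14. ARID1A lies at chr1:26695765-26696014 (plus strand), NAP1L1 at chr12:76084686-76084935 (minus), CHD2 at chr15:92900074-92900323 (plus), EZH1 at chr17:42745041-42745290 (minus) and KMT2D at chr12:49060795-49061044 (minus). Capitals mark matches, on either strand, to any of 6 motifs: the GC box GGGCGG, the CCAAT box CCAAT, the E2F core TTTNNCGC, the NRF1 core GCGCATGC, the ETS core CCGGAAG and the CRE core TGACG.
ARID1A: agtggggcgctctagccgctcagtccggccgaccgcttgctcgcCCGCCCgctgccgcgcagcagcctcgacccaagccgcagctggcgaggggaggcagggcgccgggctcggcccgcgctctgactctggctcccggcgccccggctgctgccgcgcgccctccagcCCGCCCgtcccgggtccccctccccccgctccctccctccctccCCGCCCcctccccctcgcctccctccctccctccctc
NAP1L1: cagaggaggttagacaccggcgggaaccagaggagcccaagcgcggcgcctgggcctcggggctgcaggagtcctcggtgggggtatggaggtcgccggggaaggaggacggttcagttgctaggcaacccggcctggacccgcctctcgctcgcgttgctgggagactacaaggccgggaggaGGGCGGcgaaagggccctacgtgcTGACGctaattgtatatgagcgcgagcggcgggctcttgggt
CHD2: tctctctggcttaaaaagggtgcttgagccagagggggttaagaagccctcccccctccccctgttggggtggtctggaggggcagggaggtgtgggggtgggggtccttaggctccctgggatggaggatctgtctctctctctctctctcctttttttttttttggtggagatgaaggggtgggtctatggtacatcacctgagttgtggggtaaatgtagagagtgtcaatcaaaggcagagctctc
EZH1: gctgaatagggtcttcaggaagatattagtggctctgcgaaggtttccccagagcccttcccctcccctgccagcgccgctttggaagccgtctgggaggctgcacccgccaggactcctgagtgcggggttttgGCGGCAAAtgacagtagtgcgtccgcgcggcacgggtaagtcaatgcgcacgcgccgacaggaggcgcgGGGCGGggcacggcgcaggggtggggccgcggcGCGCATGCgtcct
KMT2D: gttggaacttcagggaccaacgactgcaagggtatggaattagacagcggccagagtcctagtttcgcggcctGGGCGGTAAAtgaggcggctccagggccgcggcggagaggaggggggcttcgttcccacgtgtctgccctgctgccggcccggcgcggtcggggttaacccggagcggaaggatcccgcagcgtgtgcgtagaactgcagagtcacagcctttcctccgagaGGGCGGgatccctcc

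No motif was shared by all 5 promoters. The GC box was found in those of ARID1A, NAP1L1, EZH1 and KMT2D, and in 42.6% of all 35116 promoter windows of this length. The E2F core was found in those of EZH1 and KMT2D and in 5.92% of windows, and in KMT2D it overlaps a GC box. An NRF1 core stood in the EZH1 promoter (2.63% of windows) and a CRE core in the NAP1L1 promoter (21.2%). CHD2 held none of the 6 motifs, and its window had 54.8% G and C, the least of the 5, beside 65.6% to 80.4% in the others and a median of 58.0% over all windows. Of the 29 measured chaperone and remodeller genes with a window, 23 held a GC box, 9 a CCAAT box (32.0% of all windows), 13 a CRE core, 6 an ETS core (8.52%), 4 an E2F core and 1 an NRF1 core. Such a match describes the letters only.

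The 34 genes varied little within pairs. The median gap between the 2 arrays of a group was 0.10 in gamma_ON, 0.15 in gamma_OFF and 0.04 in CTRL, beside 0.12, 0.18 and 0.11 over all genes. In gamma_ON, replicate 2 was the lower array for 31 of the 34 genes, beside 61.5% of all genes. In gamma_OFF replicate 2 was lower for 21 (49.5% of all genes), and in CTRL for 17 (50.5%). Ordered by group mean, gamma_OFF was lowest for 25 of the 34, CTRL for 8 and gamma_ON for 1 (40.0%, 32.3% and 27.7% of all genes), and gamma_ON was highest for 22, CTRL for 11 and gamma_OFF for 1, ARID1B (34.9%, 26.0% and 39.1% of all genes).

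Further subunits of these complexes and other chromatin enzymes were read from lists of 125 measured genes. In gamma_OFF against CTRL, 5 of them fell, 1 rose and 119 did not pass, or 4.80% called beside 8.85% of all genes, with a median of -0.07. The share called was thus below that of all genes, and the genes named are single calls. RCOR1, the CoREST subunit that links the demethylase KDM1A to nucleosomes, read 8.99 and 9.05 in gamma_ON, 8.30 and 8.08 in gamma_OFF, and 9.21 and 9.29 in CTRL. RCOR1 fell in gamma_OFF by 1.06 on the log2 scale (SE 0.12, adjusted p = 0.00453), and was called whichever of the 6 arrays was left out, with adjusted p-values up to 0.0369. Its log2 fold change in gamma_ON against gamma_OFF was 0.83 (adjusted p = 0.0123, rising to 0.127 when gamma_ON replicate 1 was dropped and to 0.0803 for replicate 2). Gamma_OFF thus had low RCOR1 on both arrays. KDM1A read 11.31 and 10.97 in gamma_OFF and 11.23 and 11.31 in CTRL. Only gamma_OFF replicate 2 lay under both CTRL arrays, and the KDM1A difference was not called.

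The other genes that fell in gamma_OFF against CTRL were PHC3, a PRC1 subunit (-0.60), SIN3B, a corepressor scaffold (-0.52), CHD6 (-0.49) and NSD3, a methyltransferase (-0.45), with adjusted p-values from 0.0356 to 0.049. DNMT3B, a DNA methyltransferase that marks pluripotent cells, rose by 0.46 (adjusted p = 0.0489), with 12.15 and 12.07 in gamma_ON, 12.31 and 12.49 in gamma_OFF, and 11.92 and 11.97 in CTRL. None of these 5 calls held without CTRL replicate 1 or without CTRL replicate 2, or without gamma_OFF replicate 2. Their adjusted p-values without CTRL replicate 1 ran from 0.103 to 0.23, and without CTRL replicate 2 from 0.143 to 0.245. NSD3 had an adjusted p of 0.33 with the mean of its rows in place of the brightest. After the second quantile normalization CHD6 (limma adjusted p = 0.0722), SIN3B (0.0779) and NSD3 (0.155) were not called. PHC3 (0.0466), DNMT3B (0.0387) and RCOR1 (0.0127) still were.

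In gamma_ON against CTRL 0 of the 125 genes were called by limma, beside 1.55% of all genes, and 23 had an unadjusted p under 0.05 (beside 14.8% of all genes), with a median of 0.09. In gamma_ON against gamma_OFF 5 were higher and 0 lower, or 4.0% beside 5.99% of all genes, with 3.98% of all genes called higher. The count is near or under the background. Besides RCOR1 these were ACTR6, a SRCAP subunit (0.63), TET2, which oxidises methylated cytosine (0.61), NCOA6, a subunit of the KMT2D complex (0.58), and PHF10, a PBAF subunit (0.57), with adjusted p-values from 0.0415 to 0.047. All 4 were lost without gamma_ON replicate 1, gamma_ON replicate 2 or gamma_OFF replicate 2, and with either CTRL array left out. Of the 125 genes 84.0% lay above 0 in that comparison, beside 52.9% of all genes and 63.3% of the bright ones. All 21 further subunits of INO80, SRCAP and TIP60 complexes did so, with 1 called. Their median was 0.33, beside 0.02 over all genes and 0.11 over the bright ones. After the second quantile normalization ACTR6 (limma adjusted p = 0.0915) and PHF10 (0.1045) were not called in that comparison. RCOR1 (0.034), TET2 (0.04) and NCOA6 (0.047) still were. Whether the direction of these lists changed with the scaling was not tested.

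Markers of other cells moved with the groups as well. The 10 hepatic and yolk sac genes averaged 9.55 to 9.64 in gamma_ON, 7.25 to 7.31 in gamma_OFF and 7.27 to 7.59 in CTRL, and 8 of 10 were called higher in gamma_ON, both against CTRL and against gamma_OFF. In gamma_OFF against CTRL 5 of the 10 were called in opposite directions, AFP (1.02) and AHSG (0.65) higher and APOA2 (-1.24), TTR (-0.96) and FGB (-0.75) lower, which the list's mean does not show. The 6 measured mesoderm markers averaged 8.80 to 8.81 in gamma_ON, 7.95 to 8.11 in gamma_OFF and 7.89 to 8.01 in CTRL, with 3 called higher in gamma_ON against CTRL, 4 in gamma_ON against gamma_OFF and 0 in gamma_OFF against CTRL. The 6 measured neural markers averaged 7.08 to 7.12 in gamma_ON, 7.24 to 7.37 in gamma_OFF and 7.42 to 7.63 in CTRL. ZIC1 (-0.67) and NES (-0.49) were called lower in gamma_OFF against CTRL. In gamma_ON against CTRL 5 of the 6 lay below 0, with ZIC1 called lower, and DCX was called lower in gamma_ON against gamma_OFF. The 4 measured of 9 fibroblast markers averaged 8.20 to 8.25 in gamma_ON, 7.74 to 7.88 in gamma_OFF and 8.04 to 8.19 in CTRL. Their rows are named for human genes and the feeders were mouse cells, so they do not directly measure the feeder layer. Which cells gave this signal was not tested. Of these TAGLN was called lower in both vectors against CTRL, and LUM was called higher in gamma_ON against gamma_OFF (1.10). In gamma_ON against CTRL 2 of the 4 lay above 0, LUM (0.86) and DCN (0.43), neither called, and 2 lay below. The part of all these markers in the values of the chaperone and remodeller genes was not tested.

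**Figure D4:**
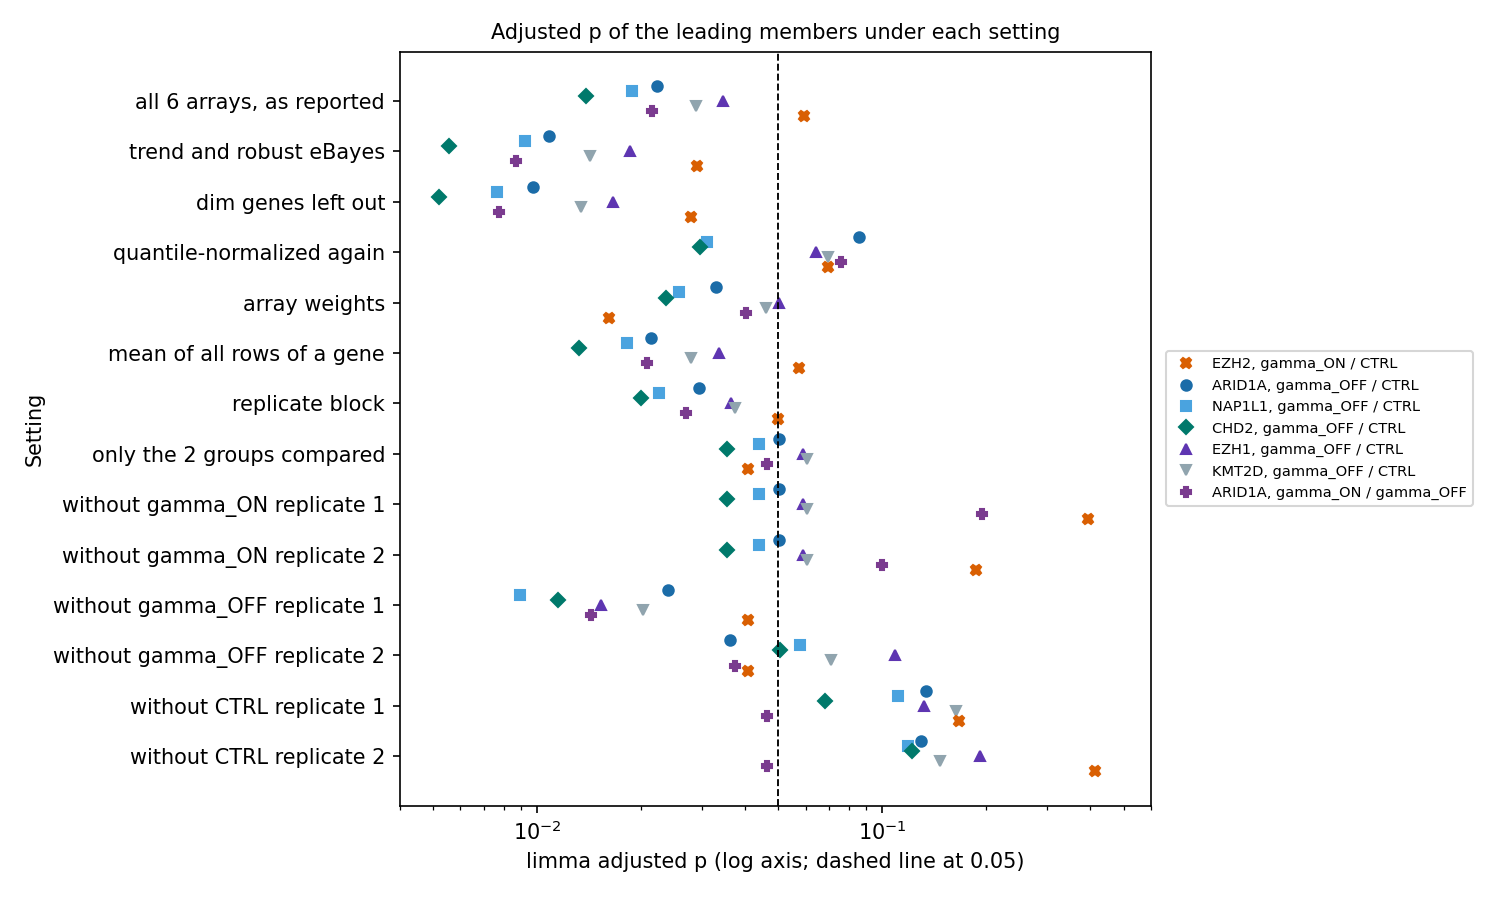
Limma adjusted p (horizontal log axis, dashed line at 0.05) of the 5 genes that fell in gamma_OFF against CTRL, of ARID1A in gamma_ON against gamma_OFF and of EZH2 in gamma_ON against CTRL, under each setting (rows). All 5 genes lie right of the line when either CTRL array is left out, and all 5 lie left of it when gamma_OFF replicate 1 is left out.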

How the data were processed

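Expression was measured in 6 samples of H9 cells, 2 each of gamma_ON, gamma_OFF and CTRL, grouped by the sample descriptions. The deposited values are log2 levels per array row, and the submitters' processing notes name RMA and Partek 6.6. The log2 scale follows from the range of the values. No build or other step is given in these sources. The value table held 53617 rows. The platform's probe table named 16098 of them with 1 gene symbol and 0 with several, and left 37519 unnamed here. All 16098 identifiers matched RefSeq's GRCh38.p14 gene table and 0 symbols changed. The brightest row was kept for the 779 genes with several rows, which gave 14884 genes. Of 59 listed genes, 34 had a row.

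The tests used limma 3.58.1 with lmFit and eBayes (R 4.3.3), in 1 fit over all 6 arrays with 3 residual and 6.05 prior degrees of freedom, as 3 two-sided contrasts. Benjamini-Hochberg adjustment ran over all genes, and all p-values printed are limma's. Exact permutation of 2 arrays against 2, whose smallest p is 0.333, was not used. The fit was tested on simulated data. Every one of the 34 genes could be named. Values on all arrays are given for each called gene, for the gene with the largest absolute log2 fold change in a role group without a call, and for others of interest chosen after their values were seen. From each other list up to 4 called genes per comparison could be named. Alternatives covered the moderation of variances, dim genes, a second quantile normalization, array weights, the choice of row, a replicate block, the groups in the fit and leaving out each array. The genes, lists and tests were chosen with earlier results of these data known.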

Additional observations from a re-analysis of the deposited data

How the results depend on the processing

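Other settings changed which of the 34 chaperone and remodeller genes were called, and the direction of each of the 6 calls and of EZH2, EYA3 and SRCAP was the same in all of them. In gamma_ON against CTRL the count of 0 became 1, EZH2, with the trend and robust option (2.56% of all genes). The same held with dim genes left out (3.54% of the bright genes), array weights (5.40% of all genes) and only the 2 groups compared (3.27%). In gamma_OFF against CTRL the count of 5 became 3 with the values quantile-normalized again (6.27% of all genes) and 2 with only the 2 groups compared (3.81%). It became 4 with array weights (5.15%, EZH1 lost, limma adjusted p = 0.0503) and 6 with dim genes left out (16.3% of the bright genes). In gamma_ON against gamma_OFF the count of 1 became 4 with the trend and robust option (10.7% of all genes) and 6 with dim genes left out (17.5% of the bright genes). It became 2 with the mean of all rows of a gene (6.22% of all genes) and 0 with the values quantile-normalized again (3.20%). With single arrays left out the counts ran from 0 to 1, from 0 to 8 and from 0 to 14 in the 3 comparisons, and the lone array of a group was then assumed to vary like the others. The cause of these changes was not tested. Leaving out 1 array of the group that a comparison does not use gives the same fit as only the 2 groups compared.

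Over all genes, the counts in the 3 comparisons were 230, 1317 and 892, against 169, 933 and 476 with the values quantile-normalized again and 803, 767 and 229 with array weights. Of all calls in gamma_OFF against CTRL, 68.7% were lower, against 61.6% after the second quantile normalization.

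Replicate numbers did not pair the samples: deviations of same-numbered arrays correlated at 0.088, -0.0962 and -0.0735 between groups over 14884 genes. With a replicate block 1 gene, EZH2, was called in gamma_ON against CTRL (limma adjusted p = 0.0499), beside 1.41% of all genes. There were 5 in gamma_OFF against CTRL (8.36% of all genes) and 1 in gamma_ON against gamma_OFF (5.85%). With 2 arrays a group, a difference that missed the threshold does not show that the groups were alike.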
